A study of Mus musculus with 6 samples.

Results

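The clustered protocadherins are a family of neuronal adhesion genes, and they were compared here between the main olfactory epithelium of wild-type mice and of mice carrying an odorant receptor transgene, hemizygous 5x21-OR1A1. The members are the 57 rows of the count table, of 53686 in all, whose symbol names an alpha, beta or gamma clustered protocadherin. They comprise 13 alpha genes, 22 beta genes and 22 gamma genes. Among the alpha and gamma genes, 5 are C-type members (Pcdhac1, Pcdhac2, Pcdhgc3, Pcdhgc4 and Pcdhgc5). Each group had 3 libraries, all from C57BL/6J mice, and poly-A RNA was sequenced without strand information in single-end reads of 100 bases. OR1A1 is a human odorant receptor gene. The labels give neither the promoter of the transgene, nor the line or number of founders, nor the age, and no further allele or treatment. They do not name the animals, so every p-value here measures the spread between libraries.

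Clustered protocadherins are cadherin-like proteins of the cell surface that bind identical isoforms on neighbouring membranes, and in olfactory sensory neurons they are known for self-recognition and for the sorting of axons. Each alpha and gamma gene has a large variable exon with its own promoter, spliced to constant exons at the end of its cluster, while beta genes are encoded in single exons. A neuron chooses a few alpha, beta and gamma promoters at random, with CTCF and cohesin bringing a distant enhancer to the chosen ones, and the C-type promoters are largely outside this choice. The choice is made cell by cell, so a bulk library reports the sum over all choices. In such a sum, fewer cells expressing a gene and less RNA per cell cannot be told apart.

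All 57 genes lie on chromosome 18 (GRCm38, GENCODE M21 annotation). The alpha cluster spans 36930184 to 37187661, the beta cluster 37264938 to 37524479, and the gamma cluster 37661793 to 37841873. Alpha genes share constant exons with each other, and so do gamma genes. For this reason levels are given per kb of exon bases that no other gene of the annotation holds, called unshared exon below, and CPM is the count per 1000000 of the library total after TMM scaling.

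Library totals ranged from 27506217 to 35804712 counts, of which the clustered protocadherins held 4684 to 8641. All the C-type and chosen members together were a rare class of transcript, with a summed level of 162 to 237 CPM in wild-type against 173 to 207 CPM in transgenic libraries. Between 51 and 53 of the 57 genes had at least 10 counts in each library, so nearly the whole repertoire was present in the tissue. Pcdhb1, a beta gene, held 23.4 to 33.2% of all member counts in each library and was the most abundant member.

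Per kb of unshared exon, Pcdhb1 stood at a mean of 19.6 CPM over the 6 libraries. Next came the C-type gene Pcdhgc3 at 4.64 CPM per kb and the beta gene Pcdhb9 at 4.37 CPM per kb. The order of these neighbours differed between the groups. In wild-type libraries the mean was 4.08 CPM per kb for Pcdhgc3 and 4.31 for Pcdhb9. In transgenic libraries it was 5.21 for Pcdhgc3 and 4.43 for Pcdhb9. Below them were Pcdhb17 at 2.55, Pcdhb7 at 1.87, Pcdhb16 at 1.61 and the C-type Pcdhac2 at 1.6 CPM per kb. The lowest tested member, Pcdhgb8, stood at 0.149 CPM per kb. It is annotated as a polymorphic pseudogene, unlike the other members, which are annotated as protein-coding.

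**Figure D1:**
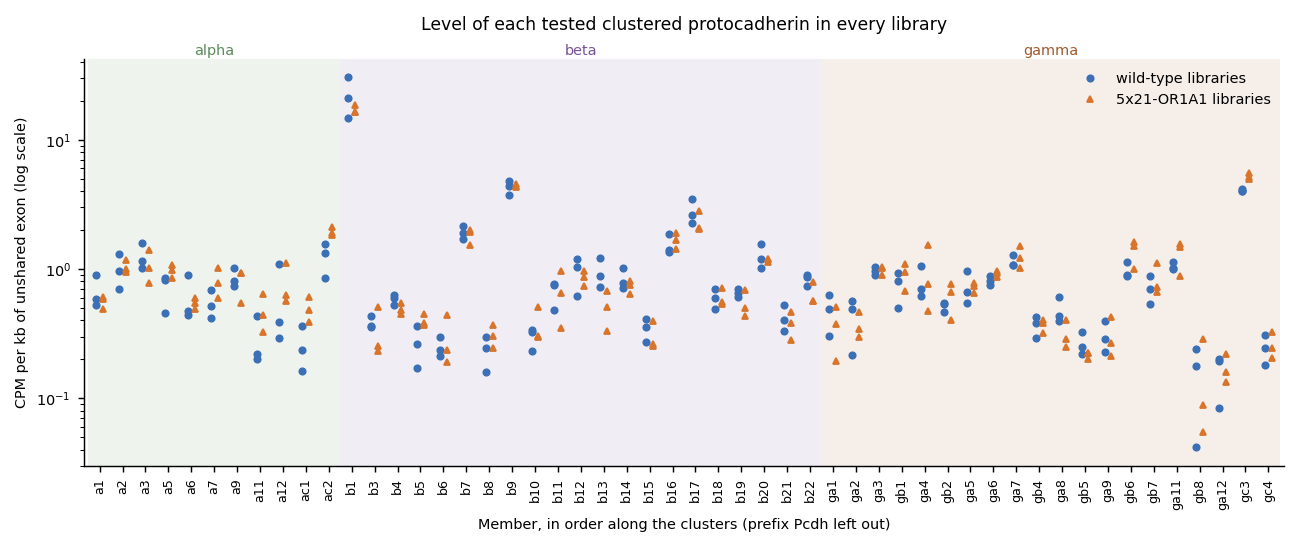
Level of the 52 tested members in each of the 6 libraries, in CPM per kb of unshared exon on a log axis, with members placed in their order along the alpha, beta and gamma clusters. Pcdhb1 is highest in every library, and for most members the wild-type circles and transgenic triangles overlap.

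The filter on low counts left 52 members: 11 alpha, 21 beta and 20 gamma. Pcdha4 had 0 or 1 count in each library, Pcdha8 had 0 to 4, Pcdhb2 had 3 to 8 and Pcdhgc5 had 1 to 10. Pcdhga10 had 0 counts in all 6 libraries, which allows up to 0.0818 to 0.110 CPM per library for counting error alone. Of these, Pcdha4 has 404 unshared of 5768 exon bases and Pcdhga10 has none, because the constant exons and an antisense transcript, Gm26672, cover it. Pcdha8, in contrast, has 2478 unshared bases. Reads of Pcdhga10 could therefore not be told from those of overlapping genes in nonstranded libraries. Pcdha8 was measurable and near 0, and Pcdha4 was near 0 over its few unshared bases.

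No clustered protocadherin passed the test between the groups. Of the 52 tested, 0 were higher and 0 lower in transgenic libraries at an adjusted p under 0.05 (edgeR quasi-likelihood test, Benjamini-Hochberg over 19267 genes), where 0.519% of all genes were higher and 2.20% lower (2.71% in either direction). DESeq2 also called 0 members, where it called 6.22% of all genes (1.56% higher and 4.66% lower), and limma-voom 0 members, where it called 2.61% (0.545% higher and 2.07% lower). At an unadjusted p under 0.05 there were 4 members, 3 higher and 1 lower, or 7.69% of those tested, against 17.1% of all genes (7.48% higher and 9.61% lower). The smallest adjusted p of any member in the edgeR test was 0.163, for Pcdhgc3.

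The estimated fold changes spread around 0. The median log2 fold change of the 52 members was 0.01, beside 0.02 over all genes tested, with a range of -0.90 to 0.93. Of the members, 25 lay below 0 and 27 above, where 47.1% of all genes lay below. The 95% interval included 0 for 48 members, and for 35 members it excluded a 2-fold difference in either direction. The interval of a typical member reached 0.63 on the log2 scale to either side. Estimates of -0.90 (Pcdhb13) and 0.93 (Pcdhac1) did not pass the adjusted test, so differences of that size could be missed.

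**Figure D2:**
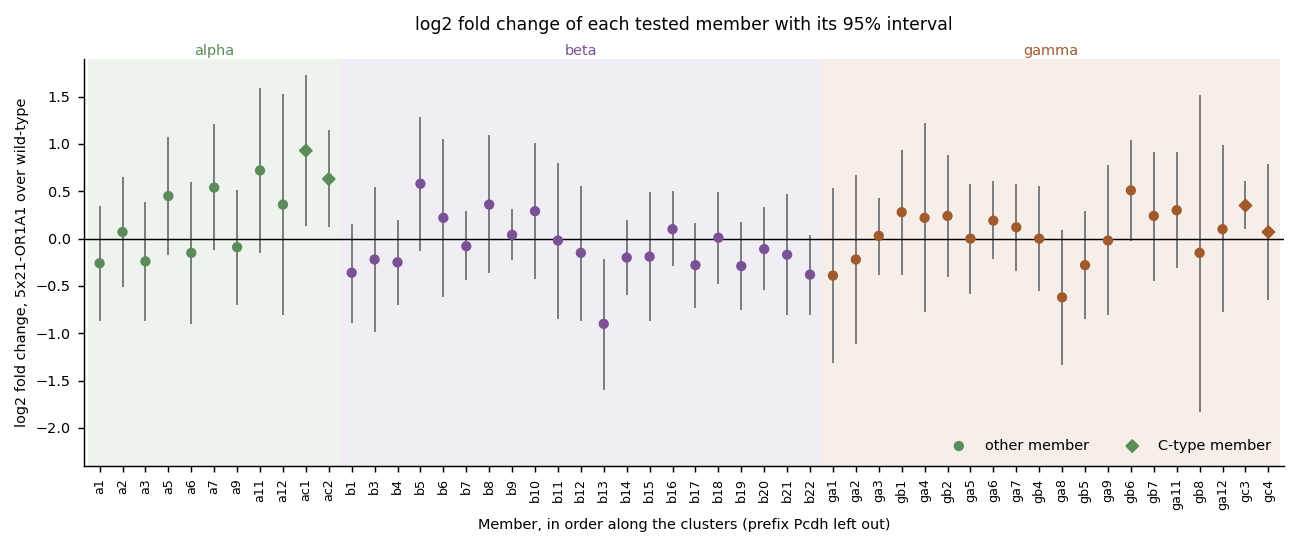
The log2 fold change (5x21-OR1A1 over wild-type) of the 52 tested members, with 95% intervals from the edgeR quasi-likelihood fit as vertical lines, coloured by family and with diamonds for C-type members. Most intervals cross 0, and Pcdhac1, Pcdhac2, Pcdhgc3 and Pcdhb13 are the 4 that do not.

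For 6 members the libraries of the groups did not overlap. In 5 of the 52, or 9.62%, all transgenic values lay above all wild-type values (Pcdhgc3, Pcdhac2, Pcdhac1, Pcdha5 and Pcdhb5), against 11.4% of all genes tested. In 1 of the 52, or 1.92%, all lay below (Pcdhb13), against 12.5% of all genes. Neither share exceeded its background. Pcdhb5 and Pcdhb13 are outside the rule for named genes and were chosen after their values were seen.

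**Figure D3:**
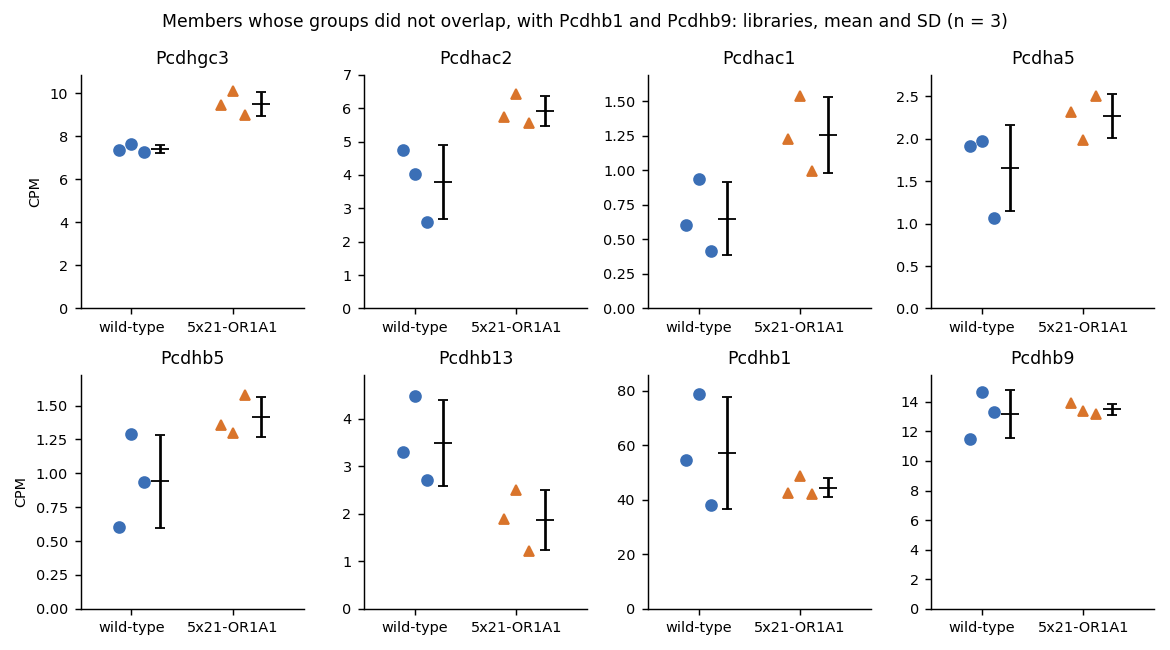
CPM in each library (circles, wild-type; triangles, 5x21-OR1A1) with the mean and SD beside them (n = 3 per group), for the 6 members whose groups did not overlap and for the abundant Pcdhb1 and Pcdhb9, on axes that start at 0. Pcdhgc3 lies between 7.26 and 7.63 CPM in wild-type and between 8.99 and 10.1 CPM in transgenic libraries, while Pcdhb1 spreads widely in wild-type.

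Among the C-type genes, which most neurons are thought to use without random choice, Pcdhgc3 was the most abundant and the most even. It stood at 7.37, 7.63 and 7.26 CPM in wild-type libraries 1, 2 and 3, and at 9.43, 10.1 and 8.99 CPM in transgenic libraries 1, 2 and 3. All 3 transgenic values lay above the wild-type ones. The log2 fold change was 0.35 ± 0.11 (SE), with a 95% interval of 0.10 to 0.61 and an edgeR quasi-likelihood adjusted p of 0.163. Its first exon overlaps BC037039, an antisense gene counted at 0.635 to 1.10 CPM, whose log2 fold change was 0.24 ± 0.30 (SE).

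Pcdhac2, a C-type gene at the end of the alpha cluster, stood at 4.76, 4.04 and 2.59 CPM in wild-type and at 5.75, 6.42 and 5.56 CPM in transgenic libraries. The wild-type libraries spread 1.84-fold while the transgenic ones lay close together above them. Its log2 fold change was 0.63 ± 0.22 (SE; 95% interval 0.12 to 1.15; edgeR quasi-likelihood adjusted p = 0.20). Pcdhac1, its C-type neighbour, stood at 0.603, 0.934 and 0.415 CPM in wild-type and at 1.23, 1.54 and 0.994 CPM in transgenic libraries. The groups did not overlap, but the gene rested on only 12 to 45 counts per library. Its log2 fold change of 0.93 ± 0.35 (SE; 95% interval 0.13 to 1.73) was the highest of all members, with an edgeR quasi-likelihood adjusted p of 0.227.

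Pcdhgc4, the remaining tested C-type gene, gave a different picture. It stood at 0.857, 0.632 and 1.07 CPM in wild-type and at 0.709, 1.13 and 0.847 CPM in transgenic libraries, which overlapped throughout (log2 fold change 0.07, 95% interval -0.65 to 0.79). Over the 4 tested C-type genes the median log2 fold change was 0.49 and none passed the test. Summed over all 5, the C-type level was 13.7, 13.5 and 11.4 CPM in wild-type against 17.2, 19.3 and 16.6 CPM in transgenic libraries, without overlap (12.8 ± 1.27 against 17.7 ± 1.43, SD, n = 3; log2 ratio 0.46 ± 0.11, SE). Pcdhgc3 made up most of that sum. Without it the log2 ratio was 0.60.

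In the alpha cluster the summed level was 20.3, 25.0 and 14.8 CPM in wild-type against 22.2, 28.2 and 22 CPM in transgenic libraries. The groups overlapped, and the log2 ratio of 0.27 ± 0.24 (SE) was within the spread. It came to 0.46 without wild-type library 2, to 0.09 without wild-type library 3 and to 0.14 without transgenic library 2. Leaving out both C-type genes gave a log2 ratio of 0.12 ± 0.26 (SE).

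Among the chosen alpha genes, Pcdha3 was the most abundant per kb. Pcdha3 stood at 2.83, 3.90 and 2.53 CPM in wild-type and at 1.91, 3.47 and 2.50 CPM in transgenic libraries (log2 fold change -0.24, 95% interval -0.87 to 0.39). Pcdha2 differed by 0.07 on the log2 scale, Pcdha9 by -0.09 and Pcdha1 by -0.26, and in all 3 the groups overlapped. Pcdha5 stood at 1.91, 1.98 and 1.07 CPM in wild-type and at 2.32, 1.99 and 2.50 CPM in transgenic libraries. These groups were separated only by the small gap between 1.98 and 1.99 CPM (log2 fold change 0.45 ± 0.27, SE; edgeR quasi-likelihood adjusted p = 0.445). Pcdha7 had a log2 fold change of 0.54, with a 95% interval of -0.12 to 1.21, and Pcdha11 one of 0.72, with a 95% interval of -0.15 to 1.59. The annotation gives the symbol Pcdha11 to 2 gene IDs, so its row may combine 2 variable exons.

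Along the alpha cluster, the log2 fold changes of the 11 tested genes were higher toward its distal end, where the C-type genes lie. Position and fold change had a Spearman rho of 0.75, and of 0.62 without Pcdhac1 and Pcdhac2. Set against the wild-type mean, the rho was 0.75, 0.71 and 0.49 in transgenic libraries 1, 2 and 3. The 11 points share the same 6 libraries and rest on low counts, and no test was made. In the beta cluster the rho was -0.23 over 21 genes, and in the gamma cluster 0.25 over 20.

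The beta genes carried most of the family's counts. Most beta genes have only unshared exon bases, while alpha and gamma genes share constant exons. Counts of the families therefore do not compare like lengths of exon. Their summed level was 131, 175 and 115 CPM in wild-type against 114, 136 and 113 CPM in transgenic libraries. The transgenic values lay near the lower wild-type ones, and the means of 140.3 ± 30.7 and 121 ± 13.2 CPM (SD, n = 3) differed by a log2 ratio of -0.21 ± 0.20 (SE). Without wild-type library 2 the log2 ratio was -0.02. Of the 21 tested beta genes 14 had a log2 fold change below 0 and 7 above, and their median was -0.15, with 0 called.

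Pcdhb1, the outermost beta gene on the side of the alpha cluster, spread widely among the wild-type libraries. It stood at 54.7, 78.8 and 38.0 CPM in wild-type and at 42.6, 48.5 and 42.2 CPM in transgenic libraries. The wild-type values ranged over 2.07-fold and enclosed all 3 transgenic values (log2 fold change -0.36 ± 0.23, SE; 95% interval -0.89 to 0.16; edgeR quasi-likelihood adjusted p = 0.471). Pcdhb9 was steadier, at 11.5, 14.7 and 13.3 CPM in wild-type against 13.9, 13.4 and 13.2 CPM in transgenic libraries. Its log2 fold change was 0.04, and the 95% interval of -0.23 to 0.31 leaves room for only a small difference.

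Other abundant beta genes also overlapped between the groups. Pcdhb17 stood at 12.2, 16.3 and 10.6 CPM in wild-type and at 9.62, 13.1 and 9.47 CPM in transgenic libraries (log2 fold change -0.28, 95% interval -0.73 to 0.17). Pcdhb16 stood at 7.34, 9.80 and 7.13 CPM in wild-type and at 7.47, 9.92 and 8.77 CPM in transgenic libraries (log2 fold change 0.10, 95% interval -0.29 to 0.50). Library 2 was the highest of its group for both genes in both groups. The log2 fold change was -0.20 for Pcdhb14, -0.08 for Pcdhb7, -0.11 for Pcdhb20 and -0.38 for Pcdhb22, each with a 95% interval that included 0.

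Pcdhb13 had the lowest log2 fold change of all members. It stood at 3.30, 4.48 and 2.70 CPM in wild-type and at 1.88, 2.50 and 1.22 CPM in transgenic libraries. All 3 transgenic values lay below the lowest wild-type one, by a narrow margin for transgenic library 2. The log2 fold change was -0.90 ± 0.30 (SE; 95% interval -1.60 to -0.21; edgeR quasi-likelihood adjusted p = 0.183). For Pcdhb13 the adjusted p was 0.0794 with DESeq2 and 0.166 with limma-voom. Pcdhb5 went the other way, at 0.603, 1.29 and 0.934 CPM in wild-type against 1.36, 1.30 and 1.58 CPM in transgenic libraries. Here too the margin was narrow, between 1.29 and 1.30 CPM (log2 fold change 0.58 ± 0.31, SE; edgeR quasi-likelihood adjusted p = 0.389).

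The gamma genes had a summed level of 37.0, 37.7 and 32.0 CPM in wild-type and of 39.4, 42.3 and 37.6 CPM in transgenic libraries. Only wild-type library 2 and transgenic library 3 overlapped, by a small margin (log2 ratio 0.16 ± 0.09, SE). The 12 genes of the gamma A subfamily had a log2 ratio of 0.03 ± 0.14 (SE). The 7 gamma B genes summed to 10.3, 10.5 and 9.44 CPM in wild-type and to 12.3, 11.9 and 11.1 CPM in transgenic libraries, without overlap (log2 ratio 0.23 ± 0.06, SE). The gamma A and gamma B sums were not among the planned sums, and no test was made on them.

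The gamma B sum leaned on Pcdhgb6. Pcdhgb6 stood at 2.29, 2.25 and 2.91 CPM in wild-type and at 4.14, 2.57 and 3.87 CPM in transgenic libraries, with transgenic library 2 inside the wild-type range (log2 fold change 0.51, 95% interval -0.02 to 1.04; edgeR quasi-likelihood adjusted p = 0.309). The other abundant gamma genes differed less. The log2 fold change was 0.28 for Pcdhgb1, 0.24 for Pcdhgb2, 0.19 for Pcdhga6, 0.12 for Pcdhga7, 0.03 for Pcdhga3 and -0.00 for Pcdhga5. Each of their 95% intervals included 0, the narrowest being -0.38 to 0.43 for Pcdhga3. An exon of Pcdhgb1 overlaps the first exon of Pcdhga4, so reads there cannot be given to either gene alone. The overlap weighs more on Pcdhga4, with 1570 unshared exon bases, than on Pcdhgb1, with 2622.

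**Figure D4:**
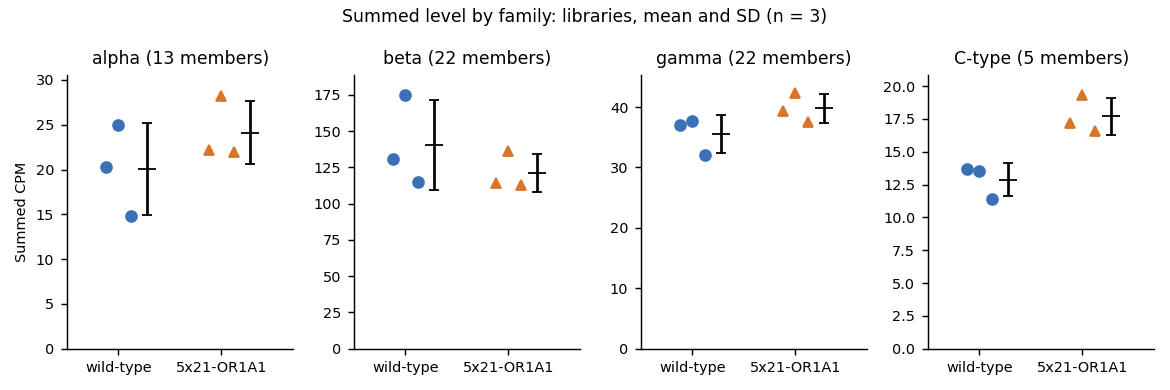
Summed CPM of the alpha, beta, gamma and C-type genes in each library (circles, wild-type; triangles, 5x21-OR1A1) with the mean and SD (n = 3 per group), on axes that start at 0. The C-type sums are 11.4 to 13.7 CPM in wild-type against 16.6 to 19.3 CPM in transgenic libraries, and the alpha, beta and gamma sums overlap.

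The makeup of the family was compared within each library, which removes the scaling between libraries. In wild-type libraries, beta genes held 69.6, 73.6 and 71.1% of all member counts, and in transgenic ones 65.0, 65.9 and 65.4%. All 3 transgenic shares lay below the lowest wild-type share, and the difference was -5.99 ± 1.20 percentage points (SE). It ranged from -6.92 to -4.91 points with each library left out in turn. Alpha genes held 10.8, 10.5 and 9.15% in wild-type against 12.6, 13.6 and 12.8% in transgenic libraries, and gamma genes 19.6, 15.9 and 19.7% against 22.4, 20.5 and 21.8%. Since the 3 shares sum to the whole, they are not separate observations. The size of each share also depends on how many exon bases of a family are unshared, which is most for beta genes.

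C-type genes held 23.9, 21.6 and 24.3% of the alpha and gamma counts of wild-type libraries, as compared with 28, 27.4 and 27.8% in transgenic ones. The groups did not overlap, with a difference of 4.48 ± 0.87 points (SE), and of 3.64 to 5.01 points with each library left out in turn. Within the gamma cluster Pcdhgc3 held 19.9, 20.3 and 22.7% of the wild-type counts and 23.9, 23.8 and 23.9% of the transgenic ones. Within the beta cluster Pcdhb1 held 41.8, 45.1 and 33.0% in wild-type against 37.3, 35.6 and 37.4% in transgenic libraries, which overlapped. The difference for Pcdhb1 was -3.19 ± 3.68 points (SE), and it depended on single libraries: it was -6.68 points without wild-type library 3 and -0.59 points without wild-type library 2. These shares are given as descriptions, with no test.

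**Figure D5:**
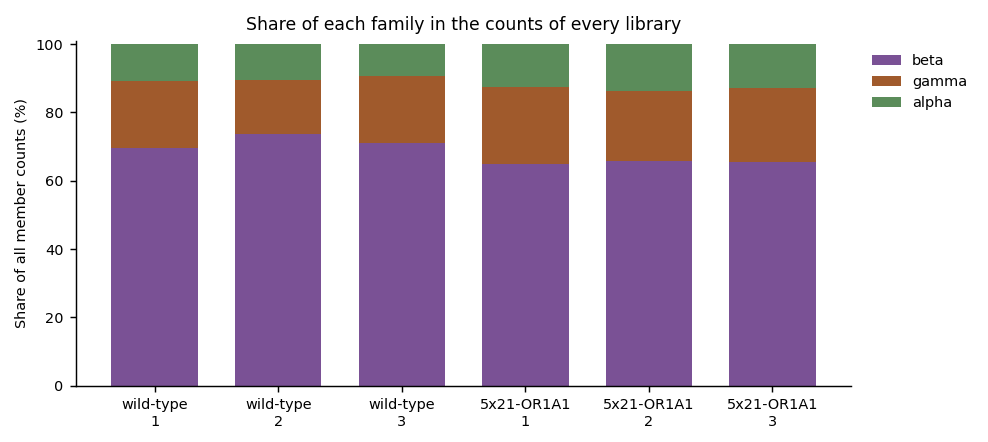
Share of all clustered protocadherin counts held by beta, gamma and alpha genes in each of the 6 libraries, in percent of the counts of all 57 members. The beta share is 69.6 to 73.6% in wild-type against 65.0 to 65.9% in transgenic libraries.

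The wild-type libraries differed among themselves more than the transgenic ones for the summed family, with SDs of 38.2 and 19 CPM around means of 196 and 185 CPM. Wild-type library 2 was the highest of its group for 34 of 52 members (65.4%, against 34.7% of all genes tested). Wild-type library 3 was the lowest for 34 of 52 (65.4%, against 31.1%). Markers of other cells also set library 2 apart. Its 12 endothelial and fibroblast markers summed to 2512 CPM, beside 5614 to 6679 CPM in the other 5 libraries. Its muscle, bone and cartilage markers summed to 135 CPM, beside 247 to 287 CPM. Col1a1 (992 CPM) and Col1a2 (884 CPM) made up most of the first sum in library 2. Bglap (32.6 CPM) and Ibsp (53.1 CPM) made up most of the second. Not every marker was low there, as Col2a1 stood at 13.8 CPM and Col9a1 at 22.9 CPM, its highest value of all libraries. The part of these markers in the members' levels was not tested. Without wild-type library 2 the log2 ratio of all members summed went from -0.08 ± 0.18 (SE) to 0.08, and 0 members were called.

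Neuronal markers moved with the genotype. Of 16 mature olfactory neuron markers 6 fell and none rose in the edgeR test, Omp, Gfy, Gng13 and Ric8b among them, and their sum was 20678 to 27238 CPM in wild-type against 14228 to 15635 CPM in transgenic libraries. DESeq2 called 12 of them lower. The 6 calls were lost without wild-type library 2 or without any 1 of the transgenic libraries, and 1 was left without wild-type library 3, while the sums of the groups did not overlap. Of 14 progenitor markers 7 rose in the edgeR test, Insm1, Sox11, Nhlh1 and Top2a among them, with sums of 523 to 603 against 674 to 763 CPM. DESeq2 called 12, and leaving out each library in turn left 2 to 5, the lowest without transgenic library 2 or 3. Of 14 immature neuron markers 4 rose and 1 fell, with sums of 2066 to 2379.6 against 2437 to 2694 CPM. Without any 1 of the transgenic libraries the immature markers called higher numbered 1, and DESeq2 called 8 higher. The log2 ratio of the summed clustered protocadherins was -0.08 ± 0.18 (SE), with -0.21 for beta and 0.46 for C-type genes. That of the mature marker sum was -0.71, and the median log2 fold change of all genes tested was 0.02. Against the mature markers, the log2 ratio of the C-type sum was 1.15, and against the immature markers 0.25. Taking the mature markers as the scale called 27 members higher and 0 lower, but it also called 77.2% of all genes (75.8% higher and 1.32% lower). The part of these shifts in the C-type and beta values was not tested.

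Markers of the other cells in the dissection showed few calls. None of the markers of sustentacular cells, horizontal basal cells, ensheathing glia, endothelial cells and fibroblasts, or muscle, bone and cartilage passed the edgeR test, and DESeq2 called 2 of these, the sustentacular markers Sult1c1 and Cyp1a2, lower. The sustentacular sum did not overlap between the groups, at 28107 to 29580.3 CPM in wild-type and 26372 to 26694 CPM in transgenic libraries (log2 ratio -0.13). Of 13 tested olfactory bulb and brain markers 2 fell, Slc1a2 (log2 fold change -0.84) and Eomes (log2 fold change -0.90). Neither passed without wild-type library 2, without transgenic library 1 or without transgenic library 3. The median log2 fold change of the 13 was -0.01, with 7 below 0 and 6 above. The sums of the list overlapped between the groups.

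Genes that act on the clusters were then examined. Of 26 genes for promoter choice and chromatin, covering CTCF, cohesin, its loaders and release factors, SMCHD1, DNA methylation and demethylation enzymes, 0 were called by edgeR, DESeq2 or limma-voom, with a median log2 fold change of 0.15 and 21 above 0. At an unadjusted p under 0.05 there were 6, all higher, where 7.48% of all genes tested were higher and 9.61% lower. Over all genes tested the median log2 fold change was 0.02, and 47.1% lay below 0. Ctcf, the factor that binds the promoters and enhancers, stood at 64.0, 70.7 and 59.7 CPM in wild-type and at 66.6, 67.0 and 65.5 CPM in transgenic libraries (log2 fold change 0.03, 95% interval -0.15 to 0.22). Rad21, a cohesin subunit, likewise overlapped (log2 fold change -0.05, 95% interval -0.23 to 0.13). The intervals of both exclude all but small differences in their RNA.

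Smchd1, a chromatin protein known to repress clustered protocadherins, stood at 40.4, 42.8 and 39.3 CPM in wild-type and at 47.8, 54.5 and 50.0 CPM in transgenic libraries. The groups did not overlap, yet the gene did not pass (log2 fold change 0.31 ± 0.08, SE; edgeR quasi-likelihood adjusted p = 0.0947). Tet1, which oxidises methylated cytosine, stood at 5.18, 5.74 and 3.91 CPM in wild-type and at 6.73, 9.13 and 7.48 CPM in transgenic libraries (log2 fold change 0.65 ± 0.19, SE; edgeR quasi-likelihood adjusted p = 0.133). With DESeq2 both lay close to the threshold, at an adjusted p of 0.0531 for Smchd1 and 0.0507 for Tet1. With limma-voom the adjusted p was 0.109 for Smchd1 and 0.14 for Tet1.

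Among 21 partners and signalling genes downstream of protocadherins, such as the focal adhesion kinases and the WAVE complex, edgeR called 0. Of the 21, 5 had an unadjusted p under 0.05 in edgeR, against 17.1% of all genes tested. The median log2 fold change of the 21 was 0.08. DESeq2 called 3 of them, Marcks and Fyn higher and Psen2, a subunit of gamma-secretase, lower, and limma-voom called Marcks. Marcks, an actin-linked substrate of protein kinase C, stood at 136, 132 and 146 CPM in wild-type and at 171, 178 and 178 CPM in transgenic libraries. It lay at the threshold (log2 fold change 0.35 ± 0.07, SE; edgeR quasi-likelihood adjusted p = 0.0503), while the adjusted p was 0.00146 with DESeq2 and 0.0486 with limma-voom. Fyn, a kinase of the Src family, stood at 16.2, 14.0 and 18.3 CPM in wild-type and at 22.5, 23.0 and 21.1 CPM in transgenic libraries (log2 fold change 0.46 ± 0.11, SE). Its adjusted p was 0.0829 with the edgeR quasi-likelihood test and 0.0188 with DESeq2. Psen2 had an adjusted p of 0.0200 with DESeq2 (log2 fold change -0.38), and it also passed in the edgeR test without wild-type library 1 (adjusted p = 0.0341).

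The 12 non-clustered protocadherins, single genes outside the clusters, had a median log2 fold change of 0.02 and 0 calls by edgeR, DESeq2 or limma-voom. Of the 12, 3 had an unadjusted p under 0.05 in edgeR, against 17.1% of all genes tested. Pcdh18 had a log2 fold change of 0.40 and Pcdh1 one of -0.28. Among 21 tested genes of other identity and adhesion families edgeR and limma-voom called 0, with a median of 0.17. Of these 21, 7 had an unadjusted p under 0.05 in edgeR, against 17.1% of all genes tested. DESeq2 called the teneurins Tenm4 (log2 fold change 0.66) and Tenm2 (0.59) higher and Kirrel3 (-0.57), an adhesion molecule of olfactory axon sorting, lower, and the edgeR test called Celsr1 higher without wild-type library 1. Without the filter on low counts it called Tenm4 higher and Kirrel3 lower. The 19 tested genes that flank the clusters or lie between them, such as Taf7 and Diaph1, had a median of -0.02, with 0 calls by edgeR, DESeq2 or limma-voom, 0 at an unadjusted p under 0.05 in edgeR, and a range of -0.25 to 0.25. The members ranged more widely, from -0.90 to 0.93, at lower counts.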

How the data were processed

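Poly-A RNA of dissected main olfactory epithelium was sequenced in 6 libraries, 3 wild-type and 3 hemizygous 5x21-OR1A1. The deposited table holds raw counts per gene symbol. The submitters' processing notes name TopHat2 2.1.1, HTSeq 0.9.1 and GRCm38.p5. No annotation release or counting option is given in the sources used here. The tests ran in edgeR 4.0.16 (R 4.3.3), on the counts as deposited, with TMM scaling, genes kept with a minimum count of 10 and total of 15 (filterByExpr), quasi-likelihood test, Benjamini-Hochberg adjustment over 19267 genes, threshold 0.05. The 95% intervals come from the same fit. Alternatives were DESeq2 1.42.0, limma-voom (limma 3.58.1), other scalings and filters, each library left out, and a replicate block. GENCODE M21 gave positions and unshared exon bases. Per-kb levels ignore mappability. Named genes were the 8 of each family with the highest mean CPM, the C-type genes, any called member, up to 4 called genes of each other list, and Ctcf, Rad21 and Smchd1; for the regulators, non-clustered protocadherins and partners without a call, the 2 of lowest adjusted p. Genes of those lists named for a call by another tool or setting were chosen after their values were seen. The members and lists were chosen with earlier results of these data known. No sequences are printed.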

Additional observations from a re-analysis of the deposited data

How the results depend on the processing

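With DESeq2, limma-voom, DESeq2 size factors, library totals, no filter (56 members tested), a filter of 1 CPM in 3 libraries (45 tested), an adjusted p under 0.01, or any single library left out, 0 members were called higher and 0 lower. Only scaling to neuronal markers changed this. Scaling to the mature markers moved the median of all genes to 0.71 and that of the members to 0.71 as well. It called 27 members higher, as it did 75.8% of all genes, with log2 ratios of 0.96 for the alpha sum, 0.49 for beta, 0.85 for gamma, 1.15 for C-type genes and 0.62 for all members. With all genes shifted alike, 24 of the 25 members below 0 came to lie above 0, Pcdhb1 (0.35) among them. Of these, 4 were also called, Pcdhb14 (0.52), Pcdhb20 (0.61), Pcdhb7 (0.62) and Pcdhga5 (0.71), as were Pcdh1 (0.42) and Rad21 (0.65) outside the clusters. Scaling to the immature markers moved the median of all genes and that of the members to -0.20, gave log2 ratios of 0.06 for alpha, -0.42 for beta, -0.05 for gamma, 0.25 for C-type genes and -0.29 for all members, and called 1 member lower (Pcdhb13, log2 fold change -1.11, adjusted p 0.0442 by edgeR). Of the 27 members above 0, 12 came to lie below 0 with the immature scaling. Outside the clusters it called Pcdh1 lower (adjusted p 0.0124 by edgeR), where the mature scaling had called it higher. With TMM scaling, the C-type ratio without Pcdhgc3 was 0.60. The genes called over the whole table numbered 523, but 1194 with DESeq2 and 150 to 626 with 1 library left out. Leaving out each library in turn gave a member median of -0.13 to 0.14, a C-type ratio of 0.38 to 0.51, a gamma order rho of 0.15 to 0.31 and an alpha order rho of 0.65 to 0.78. Replicate numbers did not pair the libraries (correlations of -0.333, 0.072 and -0.17 for same-numbered pairs). With the replicate block 0 members were called, 377 genes over the whole table, 4 progenitor markers (7 without it), Tet3 higher and Kirrel3 lower, and the family log2 ratios were 0.29, -0.20 and 0.46 for alpha, beta and C-type genes. The order and share alternatives were chosen after seeing the data. With 3 libraries per group and members near 1 CPM, the median 95% interval reached 0.63 on the log2 scale to either side.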
